A study of Mus musculus with 149 samples.

Results

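Flt1, Kdr, Tek and Calcrl encode cell-surface receptors of blood vessel endothelium, and their transcripts were followed in mouse lung after a challenge with the epithelial cytokine thymic stromal lymphopoietin (TSLP). Members were all probe sets that the platform annotation assigns to one of these 4 genes alone. This gave 4 of 13494 genes named on the array and 8 of the 26166 probe sets measured: 4 for Flt1, 1 each for Kdr and Tek and 2 for Calcrl. Each gene is led here by its brightest probe set, taken over all arrays. How far each probe set lies from the 3' end of its transcript could not be noted here.

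Lung RNA of BALB/c mice was hybridised to Affymetrix arrays, 1 array per animal, and levels are given on the log2 scale of the RMA method. Animals were naive or OVA-sensitized. They received saline, the buffer alone (0.1% MSA, an abbreviation the labels do not expand), or TSLP at 150, 500 or 1500 ng, and lungs were taken 6 or 24 h later. The resulting 20 groups held 6 to 8 arrays: 3 groups of 6, 5 of 7 and 12 of 8. All animals shared the BALB/c background, and the labels name no modified gene and give no ages. TSLP groups were compared with the buffer group of the same sensitization and time, so the 3 doses of a set share their buffer arrays.

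Kdr is the main signalling receptor for vascular endothelial growth factor (VEGF) in endothelium, while Flt1 binds VEGF-A tightly, signals weakly and is also made as a soluble form. Tek, also called Tie2, receives the angiopoietins, which keep the vessel wall quiet and tight. Calcrl is a G protein-coupled receptor that binds adrenomedullin or calcitonin gene-related peptide only together with a receptor activity-modifying protein (RAMP). Lung capillaries make up a very large endothelial bed, and these receptors are abundant there. In whole lung, fewer endothelial cells and less receptor RNA per cell cannot be told apart.

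The promoters of the 4 genes are shown because the levels of the genes' leading probe sets varied together across lungs. Each is the 250 bases upstream of 1 annotated transcript start in GRCm38.p6, written 5' to 3' on the gene's strand. They lie at chr5:147726012-147726261 (Flt1, minus strand), chr5:75978456-75978705 (Kdr, minus strand), chr4:94739039-94739288 (Tek, plus strand) and chr2:84425267-84425516 (Calcrl, minus strand). The RefSeq gene spans reach farther upstream than these starts. The Flt1 and Kdr windows lie inside their spans, which reach 147726438 and 75979072. The Tek and Calcrl windows overlap theirs, which reach 94739086 and 84425405. Capitals mark matches, on either strand, to 4 short motifs: the core GGAAG bound by ETS factors, the cyclic AMP response element TGACGTCA, the GC box GGGCGG, and the TATA box TATAAA.
Flt1: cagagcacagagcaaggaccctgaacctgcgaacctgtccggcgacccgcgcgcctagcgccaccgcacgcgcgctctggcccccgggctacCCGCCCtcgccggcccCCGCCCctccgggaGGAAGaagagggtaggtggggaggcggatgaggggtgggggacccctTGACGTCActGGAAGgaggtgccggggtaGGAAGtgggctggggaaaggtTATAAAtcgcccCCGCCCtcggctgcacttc
Kdr: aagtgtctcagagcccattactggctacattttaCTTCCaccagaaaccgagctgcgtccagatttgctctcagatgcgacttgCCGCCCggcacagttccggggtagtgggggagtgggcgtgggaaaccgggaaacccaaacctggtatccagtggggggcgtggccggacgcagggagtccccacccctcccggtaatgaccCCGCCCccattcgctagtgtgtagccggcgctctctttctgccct
Tek: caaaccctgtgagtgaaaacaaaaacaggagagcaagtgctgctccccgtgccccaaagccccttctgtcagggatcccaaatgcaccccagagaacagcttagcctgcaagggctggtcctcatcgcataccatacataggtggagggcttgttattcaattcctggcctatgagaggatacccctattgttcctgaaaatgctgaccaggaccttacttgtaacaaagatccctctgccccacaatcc
Calcrl: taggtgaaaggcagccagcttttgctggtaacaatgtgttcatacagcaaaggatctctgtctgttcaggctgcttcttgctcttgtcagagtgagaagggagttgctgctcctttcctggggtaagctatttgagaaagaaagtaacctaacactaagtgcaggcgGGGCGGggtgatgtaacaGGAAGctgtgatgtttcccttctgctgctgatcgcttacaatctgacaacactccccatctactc
The Flt1 window held 3 ETS cores, 1 cyclic AMP response element, 3 GC boxes and 1 TATA box, and 70.4% of its bases were G or C. In the Kdr window there were 1 ETS core and 2 GC boxes at 61.6% G or C, and in the Calcrl window 1 ETS core and 1 GC box at 48.4%. None of the 4 motifs occurred in the Tek window, whose G or C share was 51.2%. Of 32851 promoter windows of the same length, 64.1% held the ETS core, 1.55% the cyclic AMP response element, 32.7% the GC box and 12.4% the TATA box, and the median G or C share was 52.4%. The motifs were chosen after the sequences were seen, and a match is a description of the letters.

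All 4 leading probe sets were bright. Over all arrays the log2 level of the leading Flt1 probe set ranged from 10.34 to 12.39, that of Kdr from 9.71 to 11.42, that of Tek from 12.18 to 13.19 and that of Calcrl from 12.62 to 13.62. The share of variance that lay between the 20 groups was 68.0% for Flt1, 75.8% for Kdr, 71.8% for Tek and 66.1% for Calcrl. Other endothelial markers were present too: the mean log2 level over 18 pan-endothelial markers lay between 11.54 and 11.95 on the naive buffer arrays at 6 h.

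Control probe sets on the arrays read beta-actin mRNA near its 3' end and near its 5' end. The difference, 3' minus 5' on the log2 scale, grows when the 5' part of transcripts is lost or not copied, and it is given beside the receptor values throughout. It was not constant over the groups. At 6 h its means were 2.42 ± 0.51 (SD, n = 8) in naive saline and 2.14 ± 0.31 (SD, n = 6) in naive buffer lungs, then 1.64, 1.44 and 1.61 at 150, 500 and 1500 ng. In OVA lungs at 6 h the means were 2.45 ± 0.22 (SD, n = 8) in saline and 2.57 ± 0.26 (SD, n = 8) in buffer, then 2.29, 1.79 and 1.26 with dose. At 24 h the 10 group means lay between 1.25 and 1.60. Of 24 comparisons, 13 passed an exact two-sided permutation test at an adjusted p of 0.05. The part of this measure in the receptor results was assessed only by adding it to the model as a covariate, and those values are called adjusted differences.

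**Figure D1:**
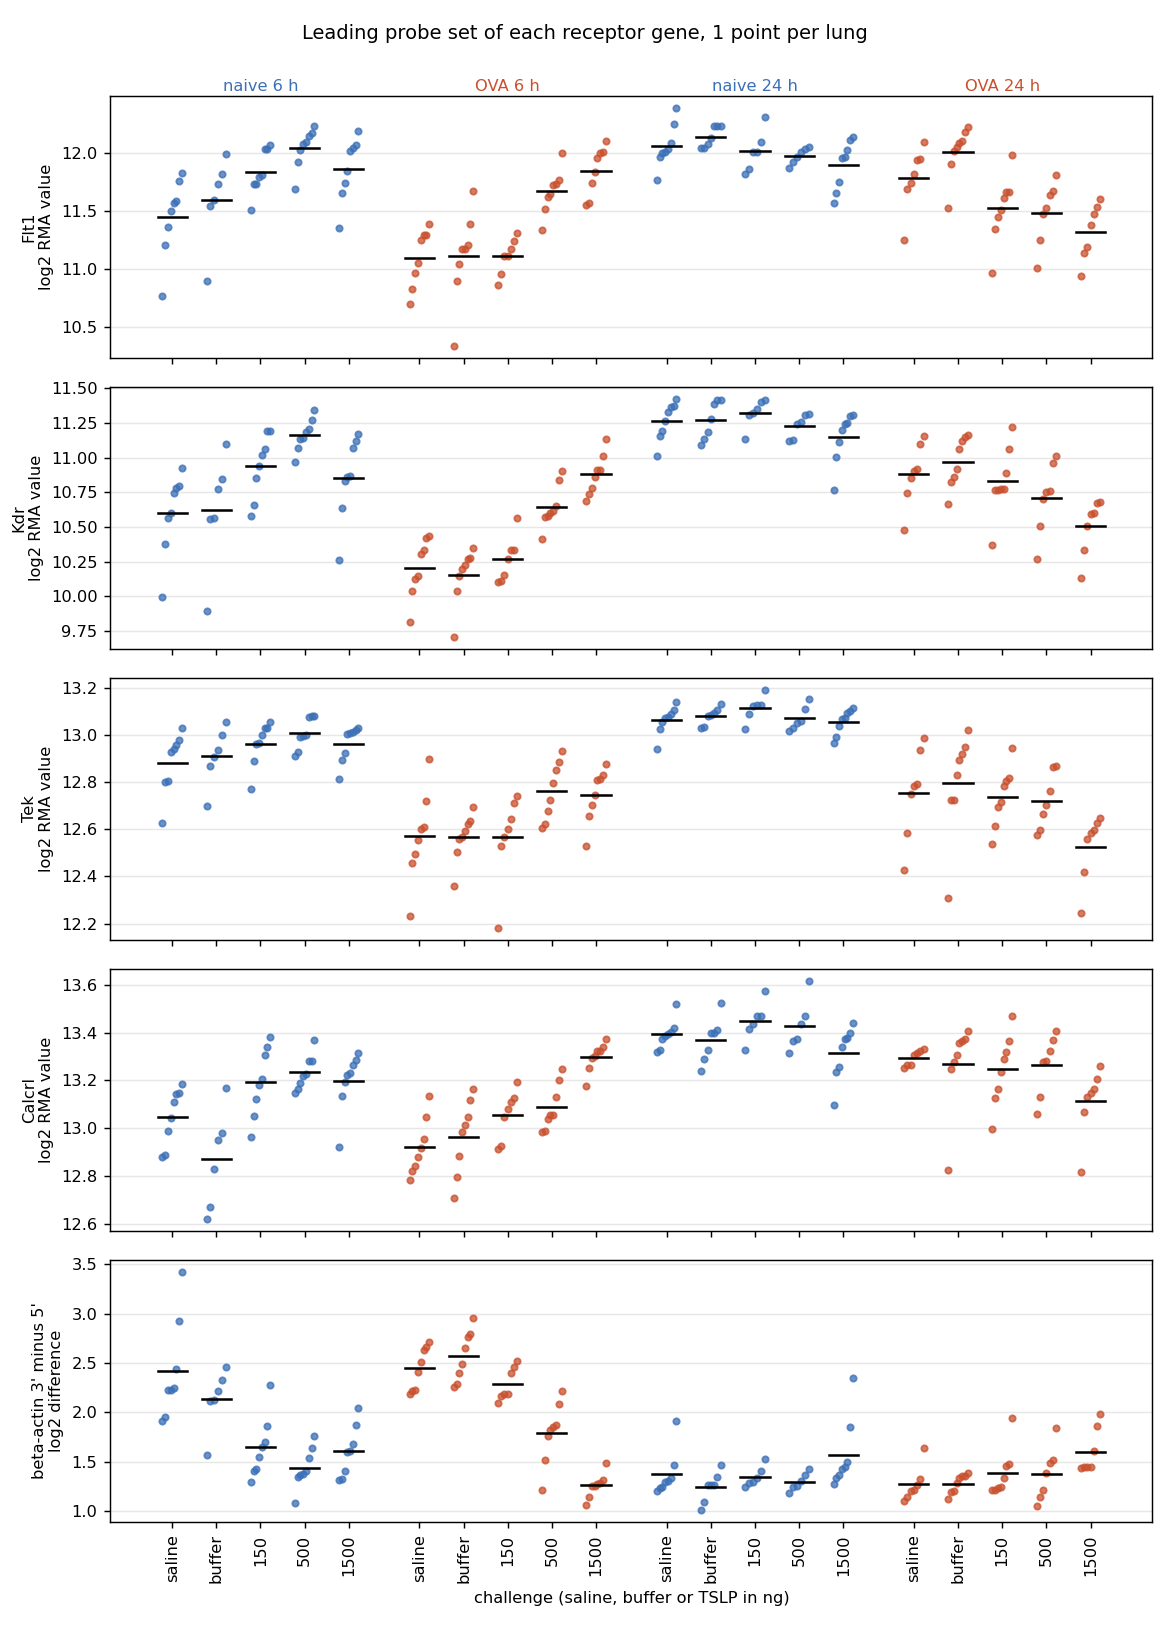
Log2 RMA value of the leading probe set of Flt1, Kdr, Tek and Calcrl, and beta-actin 3' minus 5' (log2), for each lung. Points are animals, drawn from low to high within a group, and black lines are group means. In OVA lungs at 6 h the Flt1 and Kdr points climb from the buffer group to the 1500 ng group while beta-actin 3' minus 5' falls from a mean of 2.57 to 1.26.

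Flt1, the VEGF decoy receptor, had its highest group mean in naive buffer lungs at 24 h, 12.14 ± 0.09 (SD, n = 7). Its lowest was 11.10 ± 0.25 (SD, n = 8) in OVA saline lungs at 6 h. For Kdr the highest mean was 11.32 ± 0.10 (SD, n = 6) in naive lungs 24 h after 150 ng, and the lowest 10.15 ± 0.20 (SD, n = 8) in OVA buffer lungs at 6 h. Tek peaked in that same naive group, at 13.11 ± 0.05 (SD, n = 6), and was lowest in OVA lungs 24 h after 1500 ng, at 12.53 ± 0.14 (SD, n = 7). Calcrl ran from 12.87 ± 0.21 (SD, n = 6) in naive buffer lungs at 6 h to 13.45 ± 0.08 (SD, n = 6) in naive lungs 24 h after 150 ng. When the 20 groups were ordered by mean, the gap between neighbours exceeded the SDs of both groups in none of 19 pairs for Flt1, Tek and Calcrl, and in 1 of 19 for Kdr. The largest gap was 0.24, for Kdr.

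The first comparison asked what TSLP did in OVA-sensitized lungs at 6 h. Flt1 and Kdr rose by about 1.66-fold at 1500 ng, Calcrl rose 1.26-fold and Tek 1.13-fold. In OVA buffer lungs Flt1 had a lowest level of 10.34, a median of 11.17 and a highest of 11.67. At 1500 ng it ran from 11.55 through 11.90 to 12.10. Only the top buffer lung reached into the treated range, and the difference was 0.73 (SE 0.12, limma adjusted p = 9.22e-08). Kdr, the signalling VEGF receptor, ran from 9.71 through 10.21 to 10.35 in buffer and from 10.68 through 10.89 to 11.14 at 1500 ng. These 2 groups did not overlap, and Kdr differed by 0.73 (SE 0.11, limma adjusted p = 1.96e-09).

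Calcrl, the adrenomedullin receptor subunit, ran from 12.706 through 12.999 to 13.162 in buffer and from 13.17 through 13.31 to 13.37 at 1500 ng, again without overlap. It differed by 0.33 (SE 0.06, limma adjusted p = 1.26e-06). Tek overlapped widely, with 12.36, 12.58 and 12.69 as lowest, median and highest in buffer and 12.53, 12.78 and 12.88 at 1500 ng. Its difference was 0.18 (SE 0.06, limma adjusted p = 0.011), and 7 of 8 treated lungs lay above the buffer mean. In all, 6 of the 8 probe sets rose and none fell, where 60.6% of all probe sets were called and 30% rose. The exceptions were the Flt1 probe set 1440926_at, with a difference of -0.13, and the dim Calcrl probe set 1418489_a_at, with -0.01.

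Beta-actin 3' minus 5' differed between the same groups by -1.31 (SE 0.10, exact permutation adjusted p = 0.00124). With it as a covariate the differences were 0.03 for Flt1, 0.01 for Kdr, 0.03 for Tek and 0.12 for Calcrl, and none of the 8 probe sets was called, against 5.85% of all probe sets. The adjusted p of these 4 values ran from 0.348 for Calcrl to 0.961 for Kdr. Their SEs were between 0.08 and 0.14. The beta-actin values of the groups did not overlap (2.26 to 2.96 in buffer and 1.06 to 1.49 at 1500 ng), so the adjusted values rest on the slope within groups.

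At 500 ng in OVA lungs at 6 h, Flt1 rose by 0.56 (limma adjusted p = 0.00011), Kdr by 0.50 and Tek by 0.20, while Calcrl differed by 0.12 (limma adjusted p = 0.0988). Counting all probe sets of the genes, 5 of 8 rose, against 39.3% called and 21.2% higher over the whole array. After 150 ng no member was called, against 0.172% of all probe sets. The leading differences there were 0.00 for Flt1, 0.12 for Kdr, 0.00 for Tek and 0.09 for Calcrl. Beta-actin 3' minus 5' differed from buffer by -0.78 at 500 ng and by -0.29 at 150 ng, and both passed. With it in the model, no member was called at either dose, against 6.55% of all probe sets at 500 ng and 0.111% at 150 ng. The beta-actin values at 500 ng (1.22 to 2.22) did not overlap those in buffer (2.26 to 2.96). At that dose the adjusted values therefore rest on the slope within groups.

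**Figure D2:**
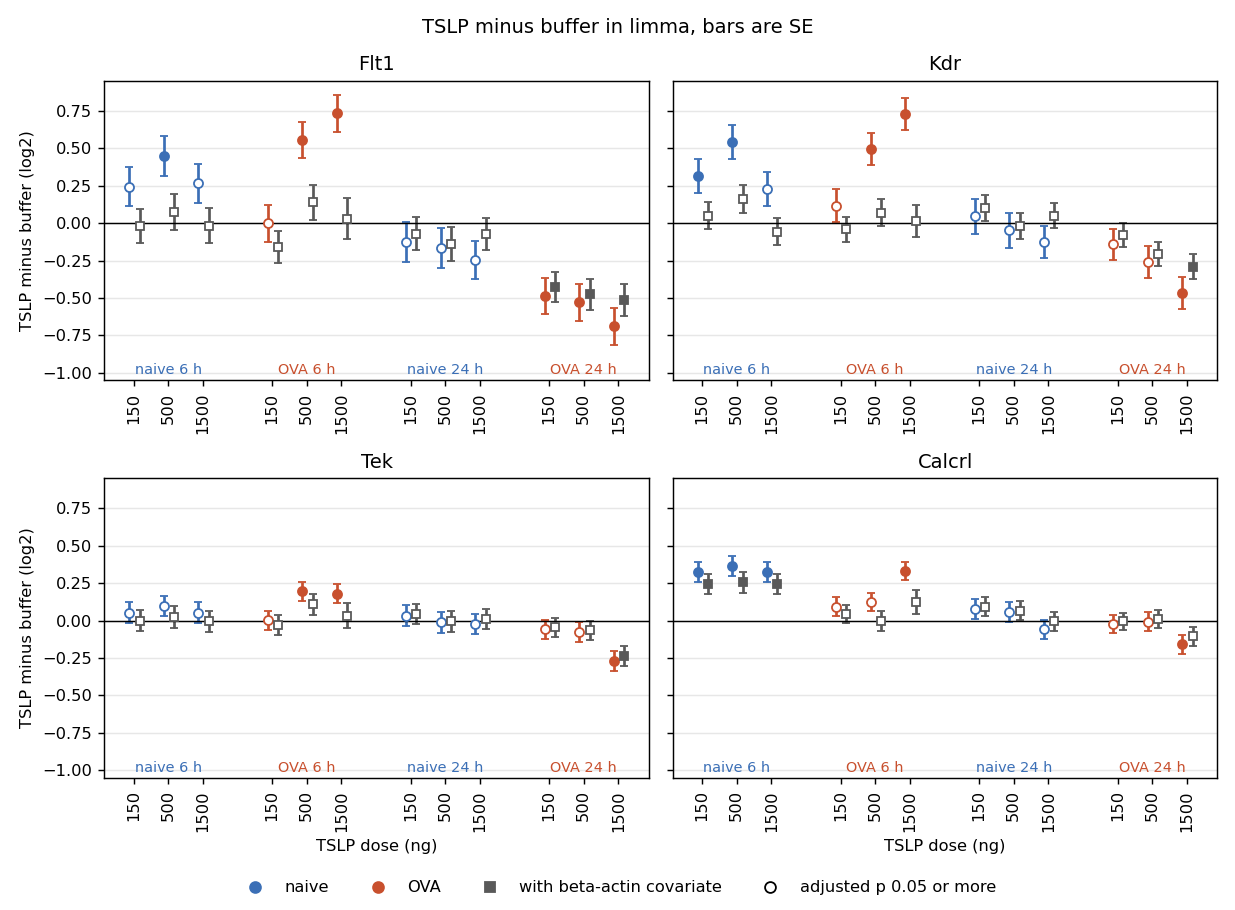
Log2 difference of each TSLP dose from the buffer group of the same sensitization and time, for the leading probe sets. Circles are the limma values, grey squares are those with beta-actin 3' minus 5' as a covariate, bars are SE, and open symbols did not pass an adjusted p of 0.05. Flt1 at 1500 ng in OVA lungs is 0.73 at 6 h and -0.69 at 24 h; the adjusted values are 0.03 and -0.52.

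In naive lungs at 6 h Calcrl was the receptor called at every dose. In naive buffer lungs Calcrl ran from 12.62 through 12.89 to 13.17, and at 500 ng from 13.15 through 13.22 to 13.37. Only 1 buffer lung reached the treated range. Calcrl rose by 0.32 at 150 ng, 0.37 at 500 ng and 0.33 at 1500 ng (limma adjusted p = 0.000252, 9.27e-06 and 0.000518). With the beta-actin covariate these were 0.25, 0.25 and 0.24, and each was still called (adjusted p = 0.00766, 0.0084 and 0.0194). The naive buffer lungs themselves held the lowest Calcrl mean of the 20 groups. They differed from naive saline by -0.18 (limma adjusted p = 0.0548), or by -0.22 with the covariate (limma adjusted p = 0.0175, where 7.4% of all probe sets were called). Set against saline instead, Calcrl at 1500 ng differed by 0.15 (limma adjusted p = 0.0415).

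Flt1 ran from 10.90 through 11.66 to 11.99 in naive buffer lungs at 6 h and from 11.69 through 12.09 to 12.23 at 500 ng. It rose by 0.45 (limma adjusted p = 0.00398) at that dose, and differed by 0.24 at 150 ng and 0.27 at 1500 ng without passing. Kdr rose by 0.32 at 150 ng and 0.54 at 500 ng, and differed by 0.23 at 1500 ng (limma adjusted p = 0.154). Fits that left out 1 array at a time at 150 and 500 ng were added after the data were seen. The Kdr call at 150 ng was lost in 6 of 14 of them (naive buffer replicates 2, 4 and 5, and 150 ng replicates 2, 3 and 7), with differences from 0.17 to 0.41. Without naive buffer replicate 4, Flt1 differed by 0.31 at 500 ng and was not called (limma adjusted p = 0.0585). Tek differences were 0.05, 0.10 and 0.05, none of which passed. Flt1 1419300_at rose by 0.27 at 1500 ng (limma adjusted p = 0.0483), and stayed called in 2 of 14 fits that left out 1 array. Over the 8 probe sets, 2, 4 and 2 rose at 150, 500 and 1500 ng and none fell. The matching shares of all probe sets called were 26%, 40% and 14.2%, of which 11.4%, 17.4% and 6.11% rose. Beta-actin 3' minus 5' differed from naive buffer by -0.49, -0.70 and -0.53, and all 3 passed. Adjusted for it, Flt1 and Kdr differences lay between -0.06 and 0.16 and none was called. Calcrl was then the 1 member called at each dose, against 12.4%, 13.4% and 4.38% of all probe sets.

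Gullet keratins bear on this buffer group: on 6 arrays both Krt4 and Krt13, keratins of squamous epithelium, exceeded their medians by over 2 log2 units, and 2 of these were among the 6 naive buffer lungs at 6 h. One of the pair held the highest Flt1 level of its group and the other the lowest. Without the 6 arrays, 5 calls rather than 8 were made in naive lungs at 6 h. Leaving out naive buffer replicate 4 alone, which had 10.90 for Flt1 and 9.89 for Kdr, reduced the calls from 8 to 4. The part of these arrays in the naive result was assessed only by leaving them out.

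At 24 h the direction in OVA lungs was the opposite of that at 6 h. The leading Flt1 probe set fell at all 3 doses, by 0.49 at 150 ng, 0.53 at 500 ng and 0.69 at 1500 ng. OVA buffer lungs had Flt1 levels of 11.53, 12.07 and 12.23 as lowest, median and highest, and lungs given 1500 ng had 10.95, 11.38 and 11.60. The lowest buffer lung was the only one inside the treated range. The limma adjusted p was 0.00871, 0.00403 and 6.85e-06 in dose order, and all 7 lungs given 1500 ng lay below the buffer mean. With the beta-actin covariate the differences were -0.43, -0.48 and -0.52, and each was called (adjusted p = 0.00582, 0.00198 and 9.48e-05). Set against OVA saline lungs instead, Flt1 differed by -0.26, -0.30 and -0.46, and was called at 1500 ng but not at 150 or 500 ng (limma adjusted p = 0.527, 0.216 and 0.0041). Against buffer, Flt1 1419300_at differed by -0.16 at 150 ng and -0.26 at 500 ng without passing (limma adjusted p = 0.26 and 0.0645). Flt1 1454037_a_at differed by -0.28 and -0.18 there and did not pass either (limma adjusted p = 0.102 and 0.322). At 1500 ng these probe sets fell by 0.48 and 0.50 and were called.

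Kdr ran from 10.67 through 10.99 to 11.17 in OVA buffer lungs at 24 h and from 10.13 through 10.59 to 10.68 after 1500 ng. It fell by 0.47 (SE 0.11, limma adjusted p = 0.000369). The adjusted difference of -0.29 was called as well (limma adjusted p = 0.00549). At 150 and 500 ng Kdr differed by -0.14 and -0.26 without passing. Tek, the angiopoietin receptor, ran from 12.31 through 12.86 to 13.02 in buffer and from 12.25 through 12.59 to 12.65 at 1500 ng. It fell by 0.27 (SE 0.07, limma adjusted p = 0.000586), and the adjusted difference of -0.24 was also called (limma adjusted p = 0.00361). The Tek differences of -0.06 and -0.08 at the lower doses did not pass.

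Calcrl fell by 0.16 at 1500 ng (SE 0.06, limma adjusted p = 0.0438), from a buffer range of 12.82 to 13.40 to a treated range of 12.82 to 13.26. This call was lost in 9 of the 15 fits that left out 1 array (OVA buffer replicates 1, 3, 4, 5, 7 and 8, and 1500 ng replicates 1, 2 and 8), with differences from -0.22 to -0.11. It was also lost with the covariate, at -0.11 (limma adjusted p = 0.192). At the lower doses Calcrl differed by -0.02 and -0.01. Over the 8 probe sets, 6 fell and none rose at 1500 ng, where 35.5% of all probe sets were called and 17.6% fell. At 500 ng 2 fell (8.63% called, 3.57% lower). At 150 ng 2 fell and 1, the dim Calcrl probe set, rose by 0.43 (7.61% called, 2.68% lower and 4.93% higher). OVA buffer replicate 2 read 4.85 for that probe set, beside a buffer median of 6.49. Without this array the difference was 0.22 and was not called (limma adjusted p = 0.31), and the call was lost in 9 of 16 fits that left out 1 array. With the covariate 3, 2 and 5 members were called from the lowest to the highest dose, against 8.01%, 8.87% and 29.6% of all probe sets.

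The beta-actin measure differed from OVA buffer by 0.11 and 0.10 at 150 and 500 ng, which did not pass (exact permutation adjusted p = 0.385 and 0.468). At 1500 ng it was higher by 0.32 (exact permutation adjusted p = 0.00124). Its values did not overlap there (1.12 to 1.39 in buffer and 1.44 to 1.99 at 1500 ng). The adjusted differences at that dose therefore rest on the slope within groups. In naive lungs at 24 h no member was called at any dose, where 0.42%, 0% and 1.53% of all probe sets were. With limma at an unadjusted threshold of 0.05 none of the leading probe sets passed at 1500 ng either. Flt1 there differed by -0.24 (95% interval -0.49 to 0.00) and Kdr by -0.13 (95% interval -0.34 to 0.09). The beta-actin measure differed by 0.32 in that comparison too (exact permutation adjusted p = 0.0339).

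**Figure D3:**
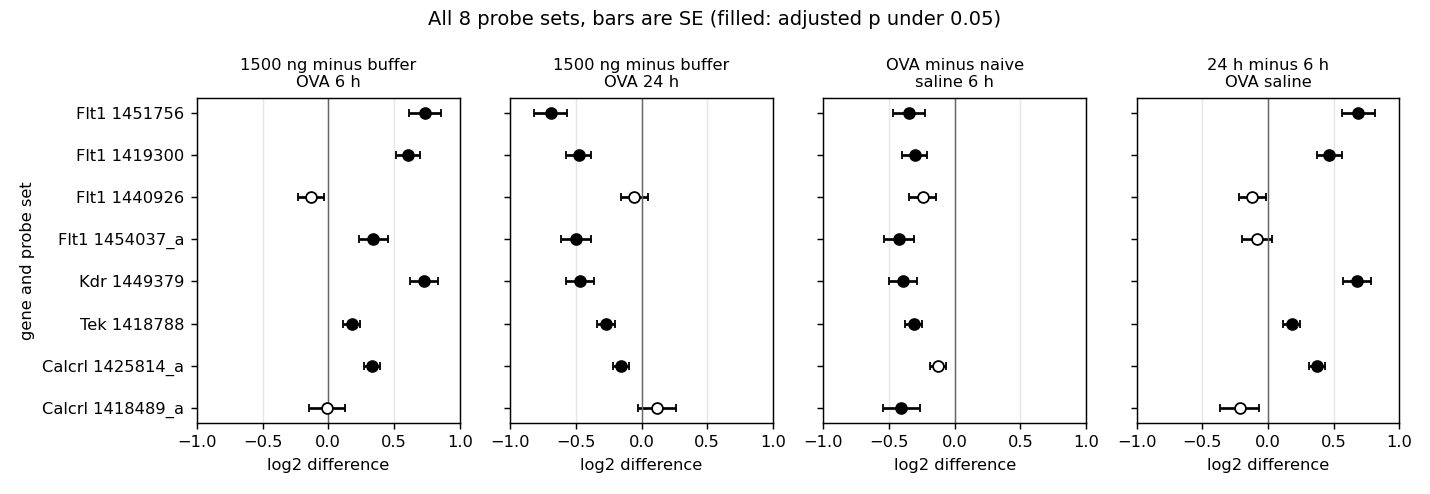
Log2 differences of all 8 probe sets in 4 comparisons, with SE; filled circles passed an adjusted p of 0.05. Flt1 probe sets 1451756_at and 1419300_at follow each other, while 1440926_at has no call in any of the 4 panels.

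The change of the 1500 ng effect was itself tested. Between OVA and naive lungs at 6 h, the effect was larger in OVA by 0.47 for Flt1 (limma adjusted p = 0.0353) and 0.50 for Kdr (limma adjusted p = 0.00954). It differed by 0.12 for Tek (95% interval -0.06 to 0.31) and 0.01 for Calcrl (95% interval -0.17 to 0.19). Counting all 8 probe sets, 3 were called, all larger in OVA, against 31.7% called and 16.9% larger overall. At 24 h none of the 8 was called (4.03% overall), although the leading Flt1 value was -0.44 (95% interval -0.80 to -0.09, limma adjusted p = 0.129).

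From 6 to 24 h the 1500 ng effect in OVA lungs fell by 1.42 for Flt1, 1.20 for Kdr, 0.45 for Tek and 0.49 for Calcrl (limma adjusted p at most 9.76e-06), and 6 of 8 probe sets were lower against 59.8% called and 29.9% lower. In naive lungs the corresponding changes were -0.51 for Flt1, -0.36 for Kdr, -0.08 for Tek and -0.38 for Calcrl. Flt1, Calcrl and the second Flt1 probe set passed there, 3 of 8, against 16.4% called and 7.82% lower. With the covariate 2 of the 32 member values in these 4 comparisons were called, those of the 2 brightest Flt1 probe sets between times in OVA lungs, at -0.54 and -0.40 (limma adjusted p = 0.0246 and 0.0288). The shares of all probe sets called were 20.6% there, 1.05% between times in naive lungs, and 6.83% and 6.06% between OVA and naive lungs at 6 and 24 h.

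Sensitization alone was read from the saline and buffer groups. Tek was lower in OVA lungs in all 4 of these comparisons. In saline lungs at 6 h Tek ran from 12.63 through 12.93 to 13.03 in naive and from 12.23 through 12.58 to 12.90 in OVA animals, a difference of -0.31 (SE 0.06, limma adjusted p = 0.000116). In buffer lungs at 6 h the naive range was 12.70 to 13.06 and the OVA range 12.36 to 12.69, which did not overlap, and Tek differed by -0.34 (SE 0.07, limma adjusted p = 4.1e-05). At 24 h it differed by -0.31 in saline and -0.28 in buffer (limma adjusted p = 9.76e-05 and 0.00265). With the covariate the 4 differences were -0.31, -0.30, -0.32 and -0.28, all called (limma adjusted p at most 0.00212).

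Kdr was lower in OVA animals in 3 of the 4, with differences of -0.40 in saline lungs at 6 h, -0.47 in buffer lungs at 6 h and -0.39 in saline lungs at 24 h. Its difference of -0.30 in buffer lungs at 24 h did not pass (limma adjusted p = 0.0687). Flt1 differed by -0.35 in saline and -0.48 in buffer lungs at 6 h and passed in both (limma adjusted p = 0.0269 and 0.00222), and its differences of -0.28 and -0.13 at 24 h did not pass. Calcrl differed by -0.13, 0.09, -0.10 and -0.10 and was not called in any of the 4. Of the 8 probe sets, 6, 5, 5 and 2 were lower in OVA animals in saline 6 h, buffer 6 h, saline 24 h and buffer 24 h, and none was higher. The whole array had 20.9%, 34.9%, 26.7% and 7.07% called, of which 12.1%, 22.2%, 15.6% and 3.67% were lower. With the covariate 6, 4, 6 and 4 members were called, against 23.8%, 24.3%, 29.9% and 8.6% of all probe sets. The beta-actin differences were 0.03, 0.44, -0.10 and 0.03, of which that in buffer lungs at 6 h passed (exact permutation adjusted p = 0.0256). The same difference for the pyruvate carboxylase control, read after the data were seen, was 0.37, -0.02, 0.68 and 0.45 (exact permutation adjusted p = 0.00932, 0.859, 0.00746 and 0.0224). With it as the covariate, 14 of the 32 member values were called in place of 18. The share of all probe sets called with this covariate was not read, so the count has no array-wide value beside it. Tek was still called in all 4 comparisons, with differences from -0.35 to -0.24 (limma adjusted p at most 0.0294). Flt1 in saline lungs at 6 h and Kdr in saline lungs at 24 h were then not called, at -0.21 and -0.27 (limma adjusted p = 0.25 and 0.147).

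Across all 10 matched pairs of challenge and time, the Tek mean was lower in OVA animals in 10, from -0.22 after 1500 ng at 6 h to -0.53 after 1500 ng at 24 h. The arrays of the 2 groups did not overlap in 6 of these pairs, where between 1.31% and 13.2% of all probe sets did not overlap in a pair. Flt1 was lower in 10 of 10 (2 without overlap), Kdr in 9 of 10 (4 without overlap) and Calcrl in 8 of 10 (none without overlap). After 1500 ng at 6 h Flt1 and Kdr had nearly the same mean in OVA and naive lungs, with differences of -0.02 and 0.03. Beta-actin 3' minus 5' differed between OVA and naive lungs at 6 h by 0.03 in saline and 0.44 in buffer. After 150, 500 and 1500 ng at 6 h it differed by 0.64, 0.35 and -0.35. The largest Flt1 and Kdr differences, -0.73 and -0.67, were those after 150 ng at 6 h. At 24 h the beta-actin differences lay between -0.10 and 0.08. Its part in these pairs was not tested. The pairs were added after the data were seen and are a description.

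**Figure D4:**
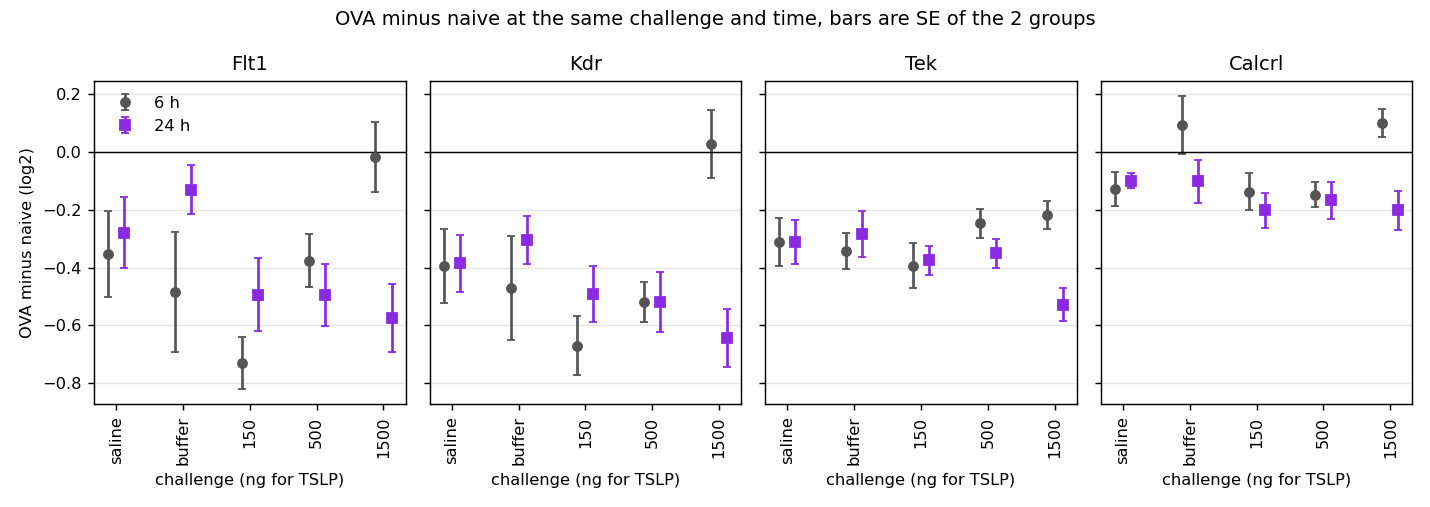
Log2 difference between OVA and naive group means at the same challenge and time, with the SE of the 2 groups, for the leading probe sets. Tek lies below 0 at all 10 points, from -0.22 to -0.53, while Flt1 and Kdr sit near 0 after 1500 ng at 6 h. In that pair beta-actin 3' minus 5' differed by -0.35.

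Markers of other cells were read in the buffer lungs at 6 h, where 12.7% of all probe sets were higher and 22.2% lower in OVA animals. Of 7 leukocyte markers measured, 3 were higher in OVA than in naive buffer lungs at 6 h and none was lower. Their mean log2 level lay between 11.02 and 11.36 on naive and between 11.23 and 11.65 on OVA buffer arrays. Of 9 alveolar epithelial markers, 1 was higher and 2 were lower, with ranges of 13.22 to 13.40 and 13.19 to 13.33. Of 18 pan-endothelial markers, 9 were lower and none higher. With the beta-actin covariate 2 of the 18 were lower and 0 higher, where 16% of all probe sets were lower and 8.29% higher. The leukocyte markers then had 2 higher and 0 lower, and the alveolar epithelial markers 1 and 1. The part of these cells in the lower receptor levels was not tested.

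Between 6 and 24 h without TSLP, 22 of 32 member values were called. In all 4 settings without TSLP, each leading probe set rose from 6 to 24 h. Flt1 rose by 0.61 in naive saline, 0.55 in naive buffer, 0.69 in OVA saline and 0.90 in OVA buffer lungs. Kdr rose by 0.67, 0.65, 0.68 and 0.82 in the same order, Tek by 0.18, 0.17, 0.18 and 0.23, and Calcrl by 0.35, 0.50, 0.37 and 0.31. In OVA buffer lungs Kdr ran from 9.71 to 10.35 at 6 h and from 10.67 to 11.17 at 24 h, with no overlap. Of the 8 probe sets, 5, 5, 5 and 6 rose and 1, 0, 0 and 0 fell, while 60.2%, 49%, 60.6% and 61% of all probe sets were called and 28%, 21.1%, 28.2% and 29.7% rose (32.1% fell in naive saline). The probe set that fell, by 0.31 in naive saline lungs, was the dim Calcrl one.

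Beta-actin 3' minus 5' differed between 24 and 6 h by -1.04, -0.89, -1.18 and -1.30, and all 4 passed (exact permutation adjusted p at most 0.004). With it in the model, 2 of the 32 member values were called, against 24.6%, 20.3%, 21.4% and 11% of all probe sets. These were Calcrl in naive buffer lungs at 0.36 (limma adjusted p = 0.00027) and Flt1 probe set 1454037_a_at in naive saline lungs at -0.45 (limma adjusted p = 0.0079). The beta-actin values at 6 and 24 h did not overlap in naive buffer, OVA saline or OVA buffer lungs. In naive saline lungs they barely met (lowest 1.9134 at 6 h, highest 1.9138 at 24 h). The adjusted values therefore rest on the slope within groups. No member was called between buffer and saline lungs (shares called 13.9%, 0.89%, 0.00764% and 0.394% over the array for naive 6 h, OVA 6 h, naive 24 h and OVA 24 h).

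Within groups, the receptors also followed beta-actin 3' minus 5'. Over deviations from group means of all lungs, Kdr had r = -0.66 and rho = -0.55, Flt1 r = -0.56 and rho = -0.46, Calcrl r = -0.33 and rho = -0.28 and Tek r = -0.22 and rho = -0.18. For Kdr and Flt1 the permutation p was 1e-05 for both measures, the smallest that 100000 permutations give. Calcrl had adjusted p = 0.00024 and 0.00248 for r and rho, and Tek 0.00753 and 0.056, in the same permutation tests. Leaving out the 2 lungs farthest from the median of the beta-actin measure gave r = -0.61, -0.51, -0.35 and -0.16 for Kdr, Flt1, Calcrl and Tek. Of the 8 probe sets tested, 6 passed on r by permutation after adjustment. The exceptions were Flt1 1440926_at (r = 0.00) and the dim Calcrl probe set (r = 0.03).

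**Figure D5:**
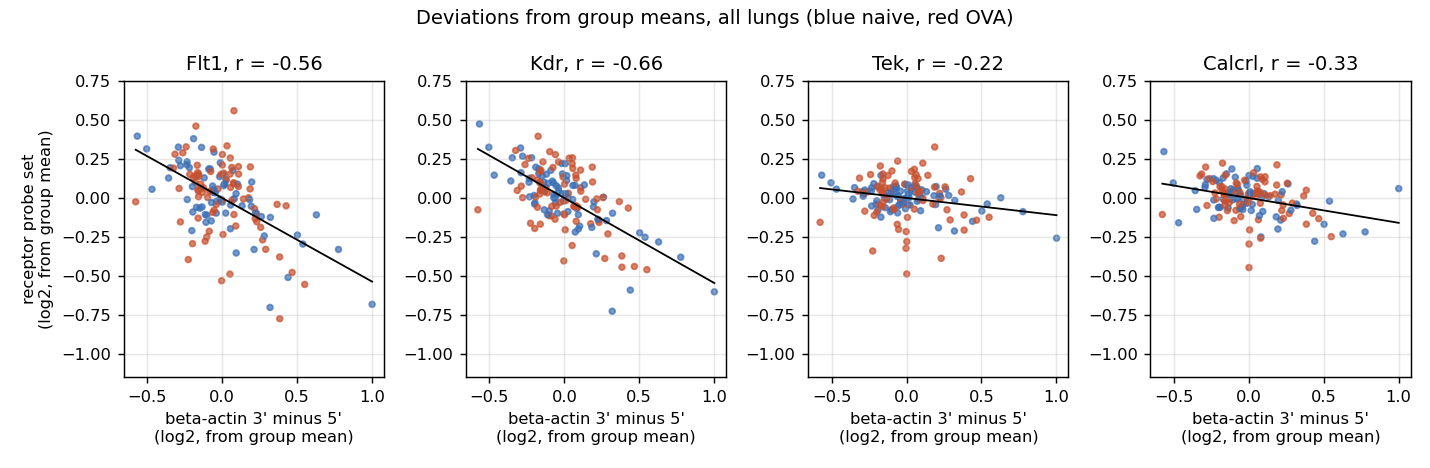
Deviation of each leading probe set from its group mean against the deviation of beta-actin 3' minus 5', both log2, for all lungs (blue naive, red OVA). Lines are least-squares fits; r is -0.56 for Flt1, -0.66 for Kdr, -0.22 for Tek and -0.33 for Calcrl.

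In the covariate fit, 1 log2 unit of beta-actin 3' minus 5' went with -0.54 (SE 0.07) for Flt1, -0.54 (SE 0.06) for Kdr, -0.11 (SE 0.04) for Tek and -0.16 (SE 0.04) for Calcrl. The median slope over all probe sets was 0.01, and 3.35% of them had a slope below that of Flt1 and 3.16% below that of Kdr. For Tek and Calcrl the share with a lower slope was 29.7% and 23.5%. Across the 20 group means the correlation with beta-actin 3' minus 5' was -0.79 for Flt1, -0.82 for Kdr, -0.49 for Tek and -0.87 for Calcrl, as a description over groups that share challenge and time.

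Probe sets of one gene did not all behave alike. The Flt1 probe sets 1451756_at and 1419300_at had r = 0.96 over the 20 group means and r = 0.77 within groups. Against the leading one, 1454037_a_at had 0.58 and 0.48, and 1440926_at 0.38 and 0.49. At 24 h in OVA lungs Flt1 1440926_at fell by 0.39 after 150 ng and by 0.37 after 500 ng, and differed by -0.05 at 1500 ng. Which Flt1 transcript, membrane-bound or soluble, each probe set reads is not stated in the sources. The 2 Calcrl probe sets had r = 0.09 over group means and 0.35 within groups, and the dim one ranked in the lowest 10.4% of probe sets by mean level.

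The leading probe sets of the 4 receptors moved together. Over group means Flt1 and Kdr had r = 0.96, Flt1 and Tek 0.86, Kdr and Tek 0.88, Kdr and Calcrl 0.88, Flt1 and Calcrl 0.78 and Tek and Calcrl 0.63. Within groups the same pairs had 0.81, 0.52, 0.59, 0.44, 0.31 and 0.51. Of the other member probe sets, Flt1 1419300_at had 0.98 with Kdr over group means, and Flt1 1440926_at had -0.04 with the leading Calcrl probe set. All values come from the same arrays and share each array's RNA. Many of 22029 probe sets of other genes had such patterns. Over the 20 group means, r exceeded 0.9 for 847 of them with Flt1, 1154 with Kdr, 389 with Tek and 508 with Calcrl. The nearest ones were sought by the same r. For Flt1 these were Pald1 (0.98), Sh3glb1 (0.98), Zbtb20 (0.98), Cttnbp2nl (0.97) and Spon1 (0.97). For Kdr they were Plagl1 (0.99), Pard3b (0.99), Atxn1l (0.98), Smurf2 (0.98) and the endothelin receptor Ednrb (0.98). Tek was followed by Sgip1 (0.98), Tril (0.98), Pard6g (0.98), Cyth3 (0.97) and the endothelial phosphatase Ptprb (0.97), whose within-group r with Tek was 0.90. Calcrl was followed by Stau1 (0.97), Ids (0.97), Rnf13 (0.97), Cds2 (0.96) and Tspan12 (0.96).

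Ligands and partners of the receptors were read in the same fits. Vegfa, the ligand of Flt1 and Kdr, was not called between TSLP and buffer at any dose or time, with differences of 0.08 at 6 h and -0.16 at 24 h after 1500 ng in OVA lungs. With the covariate the 24 h value was -0.19 and was called (limma adjusted p = 0.0361). Nrp1, the VEGF co-receptor, rose by 0.21 at 6 h (limma adjusted p = 1.44e-05; adjusted difference -0.03) and fell by 0.17 at 24 h (limma adjusted p = 0.00112; adjusted difference -0.12, also called). Angpt1, the activating Tek ligand, was lower in OVA lungs in saline at 6 h (-0.43), buffer at 6 h (-0.38) and saline at 24 h (-0.55), while its difference of -0.24 in buffer at 24 h did not pass. With the covariate the saline differences were -0.43 and -0.57 and still called, while that in buffer at 6 h was -0.31 and was not (limma adjusted p = 0.0753). Angpt2, the context-dependent Tek ligand, fell by 0.41 in OVA lungs 6 h after 1500 ng, and its adjusted difference of -0.15 was not called.

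Adm, which encodes the Calcrl ligand adrenomedullin, fell by 0.84 in OVA lungs 24 h after 1500 ng (SE 0.19, limma adjusted p = 0.000286), with all 7 treated lungs below the buffer mean. The adjusted difference of -0.83 was called as well. In naive lungs 24 h after 1500 ng Adm differed by -0.63 without passing (limma adjusted p = 0.0701), with all 8 treated lungs below the buffer mean. The adjusted difference there was -0.61 and was not called. In saline lungs Adm rose by 1.08 in naive and 1.07 in OVA animals from 6 to 24 h, and these stayed at 1.03 and 1.01 with the covariate. In buffer lungs it rose by 0.54 in naive (limma adjusted p = 0.0256) and 1.23 in OVA animals. With the covariate the OVA value was 1.16 and called, and the naive value was 0.49 and not called (limma adjusted p = 0.131). Some other partners stood out in OVA lungs 24 h after 1500 ng and were named after their values were seen. Ramp3, which turns Calcrl into an adrenomedullin receptor, rose by 0.98 (limma adjusted p = 0.000135), and the placental growth factor gene Pgf, a Flt1 ligand, rose by 0.73 (limma adjusted p = 6.75e-06). Vegfc, another VEGF ligand gene, fell by 0.70 (limma adjusted p = 4.14e-09).

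The lists were described by counts, beside 30% of all probe sets higher and 30.6% lower at 6 h, and 17.9% and 17.6% at 24 h, in OVA lungs after 1500 ng. Of 8 VEGF ligands and co-receptors, 2 rose and 2 fell in OVA lungs 6 h after 1500 ng, among them Vegfd (-0.31), Nrp1 (0.21) and Vegfb (-0.17). The list's median difference was -0.06 beside -0.01 over all probe sets. Of 5 angiopoietin and Tie genes, 1 rose and 3 fell: Ptprb (0.20), Angpt2 (-0.41) and the orphan receptor Tie1 (-0.22) gave the smallest p. Of 7 adrenomedullin and CGRP genes, Gpr182 rose by 0.42 and Ramp1 fell by 0.28, while Calcr, the calcitonin receptor, differed by -0.32 without passing. With the beta-actin covariate at 6 h no gene of the VEGF or angiopoietin list was called. The adrenomedullin list then had 0 higher and 1 lower, beside 2.23% and 3.62% of all probe sets. At 24 h after 1500 ng the counts were 1 higher and 4 lower for the VEGF list, 0 and 2 for the angiopoietin list and 2 and 2 for the adrenomedullin list. With the covariate they were 1 and 5, 0 and 2, and 2 and 2, beside 15.3% and 14.3% of all probe sets.

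Among 18 pan-endothelial markers, 10 rose and 4 fell 6 h after 1500 ng in OVA lungs (median 0.22), where 30% of all probe sets rose and 30.6% fell. The adhesion molecule Pecam1 rose by 0.76 and thrombomodulin (Thbd) by 0.38, while the nitric oxide synthase Nos3 fell by 0.75. With the covariate 0 were higher and 1 lower. The 11 capillary and aerocyte markers had 6 higher and 2 lower, led by Kit (0.90), Tbx3 (0.66) and Ednrb (0.66), and Kit was called at 0.54 with the covariate. Of 15 endothelial transcription factors, 9 rose and 3 fell, with Sox7 at 0.75, Tal1 at -0.61 and Foxo1 at -0.54. Of 6 genes of inflamed endothelium 5 rose, including the interleukin 1 receptor Il1r1 (1.11), the adhesion molecule Vcam1 (0.89) and the chemokine-binding receptor Ackr1 (0.78). Il1r1 and Vcam1 were called with the covariate too, at 0.79 and 0.68. Of 6 lymphatic genes 3 rose: Prox1 (0.92), Mmrn1 (0.68) and Lyve1 (0.49). With the covariate none of the 6 was called. The transcription factors then had 0 higher and 1 lower, the capillary list 1 and 0 and the inflamed list 2 and 0. Of all probe sets, 2.23% were then higher and 3.62% lower.

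At 24 h after 1500 ng in OVA lungs, 1 pan-endothelial marker rose and 5 fell (median -0.09), with Cdh5, the endothelial cadherin, at -0.37. Among the transcription factors 1 rose and 8 fell. The capillary list had 1 higher and 4 lower and the lymphatic list 0 and 3, against 17.9% and 17.6% of all probe sets. None of the 6 inflamed-endothelium genes was called. With the covariate the transcription factors had 0 higher and 7 lower, beside 15.3% and 14.3% of all probe sets. Pan-endothelial markers then had 0 and 3, the capillary list 1 and 2 and the lymphatic list 0 and 3. The other 2 comparisons were OVA against naive buffer at 6 h (12.7% of all probe sets higher and 22.2% lower) and 24 against 6 h in OVA saline (28.2% and 32.4%). There the transcription factors had 0 higher and 6 lower, then 9 and 2. The capillary list had 0 and 4, then 4 and 1. The inflamed list had 0 and 1, then 2 and 0, and the lymphatic list 0 and 1, then 3 and 1. Pan-endothelial markers had 7 higher and 3 lower with time. With the covariate the transcription factors had 0 and 3, then 5 and 2. The capillary list then had 0 and 3, then 2 and 1, and the inflamed list 0 and 1, then 1 and 0. The lymphatic list had 0 and 1, then 2 and 0, and pan-endothelial markers had 1 and 1 with time. The adjusted shares of all probe sets were 8.29% and 16%, then 9.08% and 12.3%.

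Markers of other cells in the same lungs were counted against the same shares of all probe sets, 30% higher and 30.6% lower at 6 h and 17.9% and 17.6% at 24 h. After 1500 ng at 6 h in OVA lungs, 4 of 9 pericyte and smooth muscle genes were higher and 1 lower, with Tagln at 0.55, Myh11 at 0.39 and Cspg4 at -0.54. Of 9 alveolar epithelial genes 3 were higher and 3 lower, with Sftpa1 at 0.07, Sftpb at -0.18 and Abca3 at -0.36. Of 7 leukocyte genes 3 were higher and 2 lower, with Coro1a at 0.29, Ptprc at 0.27 and Csf1r at -0.28, and their mean level lay between 11.23 and 11.65 in buffer and 11.33 and 11.60 in treated lungs. None of 7 genes of squamous gullet epithelium was called, with Lor at -0.62, Krt14 at -0.22 and Krt5 at -0.20. Of 9 muscle genes 1, Nppa of the heart atrium, fell by 1.89, while Myl7 and Actn2 differed by 0.50 and -0.46 without passing. At 24 h after 1500 ng, leukocyte markers had 2 higher and none lower, with mean levels of 11.03 to 11.70 in buffer and 11.46 to 11.61 in treated lungs. With the beta-actin covariate at 6 h, 0 genes of these lists were higher, and 1 pericyte and 1 alveolar gene were lower. The part of these cells in the receptor values was not tested.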

How the data were processed

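The authors deposited log2 values for 26166 probe sets on each array; the submitters' processing notes name RMA as the method. The version of RMA is not given in the sources used here. Per the labels' protocols, 100 ng of RNA entered a 3' labelling kit, so probe sets far from the 3' end read less where the 5' part is lost. RMA values carry no detection calls or counts, so precision rests on the number of arrays and their spread.

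Probe sets were named from the platform annotation (22892 with 1 gene, 260 with several, 3014 unnamed). Values ran from 2.955 to 15.11. A limma 3.58.1 fit in R 4.3.3 held 1 mean per group over all arrays (residual df 129, prior df 3.406, prior SD 0.1493), tested 28 comparisons and adjusted p by Benjamini-Hochberg over all probe sets at 0.05. The code was tested on simulated data. Beta-actin comparisons used exact permutation tests, adjusted over 24. Intervals are 95%.

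The members and lists were chosen with earlier results of these data known. Named were: each gene's brightest probe set, 5 most-alike probe sets per gene, the 3 smallest p per list after 1500 ng in OVA lungs at 6 h, and Vegfa, Angpt1, Angpt2, Adm and Nrp1; Ramp2 was not analysed here. The design text gives 8 animals per group; any further animals were not analysed here. Alternatives changed the normalization, prior, array weights, dim probe sets, arrays, reference group and covariate, 1 at a time.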

Additional observations from a re-analysis of the deposited data

Results flagged for a closer look

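Within groups, 100 sets of values were searched for a lung far from the others, and 9 were found; chance gives about 1 in 20. In OVA buffer lungs at 24 h, replicate 8 had a Flt1 level of 11.53 where the others lay between 11.91 and 12.23. Replicate 2 of that group had 12.31 for Tek (others 12.72 to 13.02) and 12.82 for Calcrl (others 13.25 to 13.40), with an ordinary beta-actin 3' minus 5' of 1.28. Kdr was 11.13 in naive lungs 24 h after 150 ng, replicate 5 (others 11.31 to 11.41). Tek was 12.18 in OVA lungs 6 h after 150 ng, replicate 7 (others 12.53 to 12.74). Calcrl was 12.92 in naive lungs 6 h after 1500 ng, replicate 5 (others 13.14 to 13.32), where beta-actin 3' minus 5' was 2.05. Beta-actin 3' minus 5' itself stood high at 24 h in naive saline replicate 3 (1.91), OVA saline replicate 5 (1.64) and OVA 150 ng replicate 3 (1.94).

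The 4 leading probe sets were each tested in 4 comparisons of the 1500 ng effect between groups. In limma with adjustment over all probe sets, 8 of these tests passed. The shares of all probe sets called were 31.7% and 4.03% between OVA and naive lungs at 6 and 24 h. Between 24 and 6 h they were 59.8% in OVA and 16.4% in naive lungs. Between OVA and naive lungs at 6 h the effect differed by 0.47 for Flt1 (adjusted p = 0.0353) and by 0.50 for Kdr (adjusted p = 0.00954). Between 24 and 6 h in OVA lungs it differed by -1.42 for Flt1, -1.20 for Kdr, -0.45 for Tek and -0.49 for Calcrl (adjusted p = 5.54e-12, 2.07e-11, 9.76e-06 and 7.74e-07). In naive lungs the change over time was -0.51 for Flt1 and -0.38 for Calcrl (adjusted p = 0.0384 and 0.00217). With the beta-actin covariate the only one of the 8 still called was Flt1 over time in OVA lungs, at -0.54, where 20.6% of all probe sets were called.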

How the results depend on the processing

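Counts are of member calls per set of comparisons: 8 for TSLP in naive lungs at 6 h, 11 for OVA at 6 h, 0 and 11 at 24 h, 0 for buffer against saline, 18 for OVA against naive, 22 for time and 12 for differences of the 1500 ng effect. With the beta-actin covariate naive 6 h had 3, OVA 6 h 0, buffer against saline 1, time 2 and the differences 2; OVA 24 h had 10 and OVA against naive 20. Uncalled differences then reversed for naive 1500 ng at 6 h (Flt1 -0.0163, Kdr -0.0574, Tek -0.00478) and at 24 h (Kdr 0.0491, Tek 0.0107). A pyruvate carboxylase 3' minus 5' covariate, added after the data were seen, gave 6 for OVA 24 h, 1 for buffer against saline, and a Flt1 difference of 0.0406 for OVA against naive buffer at 24 h, the opposite sign. That measure passed in 5 of 24 group comparisons, where beta-actin passed in 13, and in 2 of 8 within-group correlations, where beta-actin passed in 6. Buffer against saline had 1 call after quantile normalization, 1 without the dimmest 40% of probe sets, and 2 when arrays were weighted. Dropping the 6 gullet arrays gave 1 there and 5 for naive 6 h. Fitting the compared groups alone gave 5 for naive 6 h and 7 for OVA 24 h. Saline as the reference gave 15 for naive 6 h, where 49.6%, 56.8% and 42.8% of all probe sets were called in dose order. Lower among these were Flt1 1454037_a_at at 150 ng (-0.25) and the dim Calcrl probe set at 150 and 500 ng (-0.36 and -0.35). It gave 7 for OVA 24 h, all at 1500 ng, where 27.7% of all probe sets were called. Among the 7, Flt1 1440926_at was higher than saline by 0.28 (limma adjusted p = 0.0368). Shares of all probe sets were read with the beta-actin covariate and with saline as the reference, and not for the other alternatives. The causes were not tested.

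Leaving out 1 array at a time gave 4 to 9 calls for naive 6 h, 11 to 12 for OVA 6 h, 0 to 0 for naive 24 h and 9 to 13 for OVA 24 h; the lowest came without naive buffer replicate 4. The labels state no pairing by replicate number. Of 28 correlations of deviations between same-numbered 1500 ng and buffer arrays, 11 were over 0.1, from -0.35 to 0.78. The highest was for replicate 7 in OVA lungs at 6 h, where both were gullet arrays. Arrays with different numbers were not compared, so these values cannot decide whether the numbers pair the samples. With the replicate number as a block the counts were 8, 11, 0, 10, 0, 18, 21 and 12, and the Calcrl call in OVA lungs 24 h after 1500 ng was lost. GAPDH control probe sets were not used here, so the planned GAPDH alternatives were not run. The labels do not say whether arrays were run in batches.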
